A study of Mus musculus with 15 samples.

Results

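The 47 genes described here serve the folding, quality control and stress response of the endoplasmic reticulum (ER), the compartment in which secreted and membrane proteins are made. They were chosen by symbol from knowledge of the pathway, and all 47 symbols were found among the 24054 genes of the deposited table. Expression was measured by RNA sequencing of whole lungs from 15 female wild-type Balb mice in 3 groups of 5, which the labels call biological replicates. OVA aIL4Ra mice were given ovalbumin, by injection into the peritoneum to sensitise them and then as a nebulised challenge, together with 30 mg/kg of an antibody against the mouse interleukin-4 receptor alpha chain. OVA Isotype mice were given ovalbumin and an isotype control antibody, and Saline Isotype mice were sham-sensitised with saline and given the isotype control antibody. The receptor chain that the antibody binds is shared by the receptors for interleukin-4 and interleukin-13, the cytokines that drive mucus production in allergic airways. The study therefore compared the asthma model with sham mice, and the model with and without the antibody.

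Chaperones of the Hsp70 and Hsp90 families hold new chains in the ER lumen, lectin chaperones hold glycosylated chains, and protein disulphide isomerases form and exchange their disulphide bonds. Chains that fail to fold are drawn back into the cytosol and degraded, a process called ER-associated degradation. When unfolded protein builds up, the membrane sensors IRE1, PERK and ATF6 start the unfolded protein response: IRE1 splices the Xbp1 messenger RNA, PERK slows translation and favours that of ATF4, and ATF6 is cut to release a transcription factor. In the lung this machinery is known to be heavily used by mucus-making goblet cells, by alveolar type 2 cells and by antibody-secreting plasma cells.

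In OVA Isotype lungs, 19 of the 47 genes were higher than in Saline Isotype lungs and 0 were lower, at an adjusted p under 0.05 (edgeR quasi-likelihood test, Benjamini-Hochberg adjustment over all 15905 genes tested). Over all genes tested, 37.1% were called in that comparison, 19.3% higher and 17.8% lower. The median log2 fold change of the 47 genes was 0.31, beside 0.02 over all genes, and 36 of the 47 had a positive value. The 5 largest called log2 fold changes were those of the epithelial sensor Ern2 (6.14), the degradation factor Derl3 (2.96), the chaperone partner Sdf2l1 (1.67), the membrane-bound factor Creb3l4 (1.36) and the degradation factor Edem1 (1.28). Ddit3, the gene of the stress transcription factor CHOP, averaged 8.23 ± 1.97 CPM (counts scaled by library size) in OVA Isotype lungs and 11.1 ± 1.86 CPM in Saline Isotype lungs (SD, n = 5 each) without passing the test. In OVA aIL4Ra lungs against OVA Isotype lungs, 0 of the 47 genes were called and 0 had an unadjusted p under 0.05, where 0.302% of all genes were called (0.138% higher and 0.163% lower) and 5.68% had an unadjusted p under 0.05. DESeq2 and limma voom also called 0 of the 47 there, beside 128 and 51 of all genes tested. In OVA aIL4Ra lungs against Saline Isotype lungs, 18 were higher and 0 lower, where 26.6% of all genes were called, 13.9% higher and 12.7% lower. The comparisons share groups, so their calls are not independent of each other. In whole tissue, more RNA per cell and more cells of a type cannot be told apart.

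**Figure D1:**
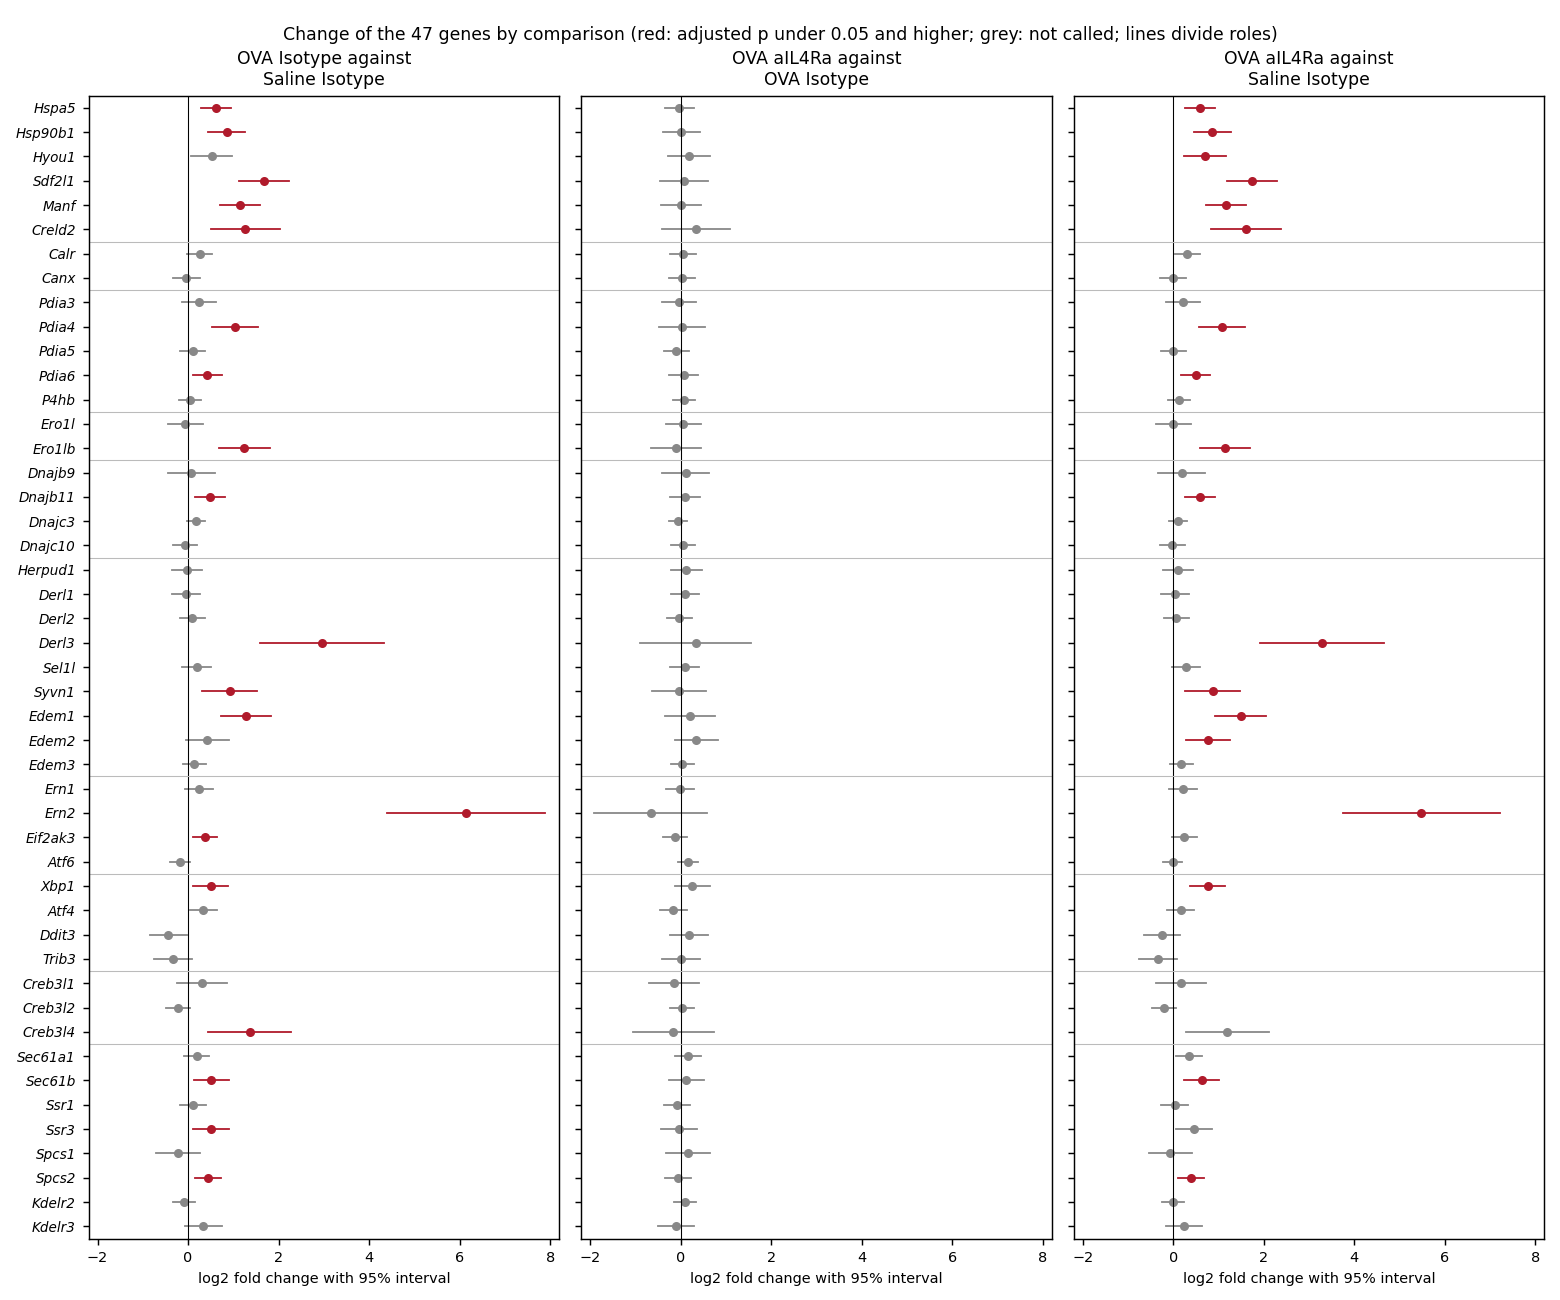
Log2 fold change (x axis) of each of the 47 genes (rows, divided by role) with its 95% interval in the 3 comparisons, red where the adjusted p was under 0.05 and the gene was higher. The left and right panels hold 19 and 18 red genes, the middle panel has 0, and Ern2 and Derl3 lie farthest to the right in both outer panels.

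Libraries held 12317800 to 16914500 counts in OVA aIL4Ra lungs, 10042800 to 14706100 in OVA Isotype lungs and 16774300 to 27570700 in Saline Isotype lungs. The ribosomal RNA precursor entry Rn45s took 1.65% to 12.4% of counts in OVA aIL4Ra lungs, 4.31% to 12.4% in OVA Isotype lungs and 1.19% to 2.88% in Saline Isotype lungs, so that this share and the ovalbumin groups move together. With the log2 of that share as a covariate, 1 of the 47 genes, Ern2, was called in OVA Isotype against Saline Isotype lungs. In OVA aIL4Ra against Saline Isotype lungs, 0 were called. Calls over all 15905 genes fell as well, from 5899 to 752 in the first comparison and from 4236 to 373 in the second. Markers of lung cell types moved too: in OVA Isotype against Saline Isotype lungs, 12 of 12 goblet markers and 7 of 9 plasma cell markers were higher, 1 plasma cell marker was lower, and 8 of 8 endothelial markers were lower. The part of the ribosomal share and of cell composition in the results below was not tested.

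Promoter sequences were matched for 39 of the 47 genes in the RefSeq promoter table (build GRCm38.p6, mouse), each window running from 250 bases before to 50 bases after an annotated start. The ER stress element, CCAAT and CCACG separated by any 9 bases, is the binding site described for NF-Y together with ATF6 or XBP1. It was found on either strand in 10 of the 39 genes (25.6%), beside 37 of all 27025 genes in the table (0.137%). The genes were chosen from knowledge of this pathway, so a higher share of this or a related element is no finding about these lungs. Of the 17 matched genes that were higher in OVA Isotype lungs than in Saline Isotype lungs, 7 held the element, and of the 22 that were not called, 3 did. The 200 bases before the start are shown for Hspa5, Creld2 and Derl3, with the fixed bases of a match in capitals, because these genes had raised levels in the ovalbumin groups and different amounts of change. Hspa5 lies at chr2:34771890-34772089 and carries the element in the forward direction together with a UPRE core. Creld2 at chr15:88819446-88819645 and Derl3 at chr10:75893198-75893397 carry the element on the opposite strand, where it reads CGTGG, 9 bases and ATTGG. All 3 windows are given on the plus strand, 5′ to 3′.
Hspa5: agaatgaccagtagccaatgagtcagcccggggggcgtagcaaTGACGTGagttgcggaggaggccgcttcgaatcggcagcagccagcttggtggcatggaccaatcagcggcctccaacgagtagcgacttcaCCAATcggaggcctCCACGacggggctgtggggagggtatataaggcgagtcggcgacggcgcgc
Creld2: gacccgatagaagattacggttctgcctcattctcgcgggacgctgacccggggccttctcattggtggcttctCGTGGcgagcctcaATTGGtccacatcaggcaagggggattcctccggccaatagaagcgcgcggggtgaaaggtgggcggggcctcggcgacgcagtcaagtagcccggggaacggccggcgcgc
Derl3: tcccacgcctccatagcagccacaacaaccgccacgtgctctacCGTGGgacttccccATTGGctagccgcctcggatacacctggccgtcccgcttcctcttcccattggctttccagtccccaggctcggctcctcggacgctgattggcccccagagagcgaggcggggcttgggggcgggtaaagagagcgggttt

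The matches themselves are given in the direction of the element, to set the 9 free bases side by side: they differ from match to match, and 6 or 7 of the 9 are G or C in each. The first 8 lines belong to genes that were higher in OVA Isotype lungs and the last 3 to genes that were not called.
Hspa5 (chr2:34772025-34772043, plus strand): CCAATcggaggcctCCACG
Hsp90b1, first match (chr10:86705638-86705656, minus strand): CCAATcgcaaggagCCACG
Hsp90b1, second match (chr10:86705533-86705551, plus strand): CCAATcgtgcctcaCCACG
Creld2 (chr15:88819520-88819538, minus strand): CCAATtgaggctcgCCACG
Pdia6 (chr12:17266491-17266509, plus strand): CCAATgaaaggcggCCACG
Ero1lb (chr13:12565682-12565700, minus strand): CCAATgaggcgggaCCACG
Derl3 (chr10:75893242-75893260, minus strand): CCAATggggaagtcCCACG
Syvn1 (chr19:6046532-6046550, plus strand): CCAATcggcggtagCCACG
Calr (chr8:84847075-84847093, plus strand): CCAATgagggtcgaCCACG
Canx (chr11:50325800-50325818, minus strand): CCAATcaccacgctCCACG
Dnajc3 (chr14:118937827-118937845, plus strand): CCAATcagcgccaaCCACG

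The related element ERSE-II, ATTGG and CCACG separated by any base, was found in Dnajb11 and Herpud1 (5.13% of the matched genes, beside 0.0444% of all genes). The UPRE core TGACGTG was found in Hspa5 and Kdelr3 (5.13%, beside 2.22% of all genes), and the ATF4 element, TGATG and AAT separated by any base, in 0 of the 39, beside 1.08% of all genes. Of the 27 other genes whose window held the first element, 9 were tested; 0 were higher in OVA Isotype lungs than in Saline Isotype lungs and 2 (Adcy3 and Spats2l) were lower, with a median log2 fold change of -0.01, while the 10 pathway genes that held it had a median of 0.74. These medians do not set pathway genes with the element against those without it, for which no median was computed. A match describes letters in a window, and binding was not measured.

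Of the 6 ER chaperones, 5 were higher in OVA Isotype than in Saline Isotype lungs and 0 were lower. Sdf2l1, which works with the Hsp70 chaperone BiP and its J-domain partners, changed most on the log2 scale among the 6. Sdf2l1 had 38.6, 39.5, 59.9, 79.9 and 22.5 CPM in OVA aIL4Ra lungs and 43.7, 63.2, 40.7, 46.8 and 34.8 CPM in OVA Isotype lungs. For Sdf2l1, Saline Isotype lungs had 14.9, 13.7, 14.9, 13.9 and 14.6 CPM. Every ovalbumin lung with either antibody lay above every saline lung, and the OVA aIL4Ra lungs spanned 22.5 to 79.9 CPM while the saline lungs spanned 13.7 to 14.9 CPM. Sdf2l1 averaged 48.1 ± 22.2 CPM in OVA aIL4Ra lungs, 45.8 ± 10.7 CPM in OVA Isotype lungs and 14.4 ± 0.565 CPM in Saline Isotype lungs (SD, n = 5 each), a log2 fold change of 1.67 ± 0.26 (SE) for OVA Isotype against Saline Isotype (edgeR adjusted p = 0.000267).

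Creld2, an ER-resident protein induced by ER stress, followed with a log2 fold change of 1.27 ± 0.36 (edgeR adjusted p = 0.0128) in OVA Isotype against Saline Isotype lungs. Creld2 had 57.8, 32.3, 119, 133 and 27.3 CPM in OVA aIL4Ra lungs and 47.1, 85.3, 52.6, 49.8 and 56.1 CPM in OVA Isotype lungs. For Creld2, Saline Isotype lungs had 21.8, 26.5, 25.7, 19.7 and 27.2 CPM. OVA Isotype replicate 2 stood above the other 4 of its group, and OVA aIL4Ra replicates 3 and 4 above the other 3 of theirs, whereas OVA aIL4Ra replicate 5 was level with the highest saline lung. Manf, a secreted protein that binds BiP, had a log2 fold change of 1.14 ± 0.21 (edgeR adjusted p = 0.000835). Manf had 109, 86.4, 164, 154 and 64.2 CPM in OVA aIL4Ra lungs and 106, 145, 98.0, 113 and 111 CPM in OVA Isotype lungs. For Manf, Saline Isotype lungs had 46.6, 48.4, 55.9, 51.0 and 57.4 CPM. The lowest ovalbumin lung, OVA aIL4Ra replicate 5, still lay above all 5 saline lungs.

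Hspa5, the gene of BiP itself, rose by less. Hspa5 had 626, 731, 805, 818 and 540.4 CPM in OVA aIL4Ra lungs and 702, 936, 623, 769 and 553 CPM in OVA Isotype lungs. For Hspa5, Saline Isotype lungs had 438, 483, 450.1, 431 and 526 CPM. All OVA Isotype and OVA aIL4Ra lungs lay above all Saline Isotype lungs, with OVA Isotype replicate 2 the highest of the 15. Its means were 704 ± 119 CPM in OVA aIL4Ra lungs, 717 ± 147 CPM in OVA Isotype lungs and 465 ± 39.1 CPM in Saline Isotype lungs (SD, n = 5 each), and the fold change of OVA Isotype over Saline Isotype was 1.54 (log2 0.62 ± 0.15, edgeR adjusted p = 0.00558). Hsp90b1, the ER member of the Hsp90 family, averaged 1300.4 ± 290.0 CPM in OVA Isotype lungs and 721 ± 84.3 CPM in Saline Isotype lungs (log2 0.85 ± 0.19, edgeR adjusted p = 0.00328). Hyou1, a nucleotide exchange factor for BiP, averaged 239.6 ± 35.2 CPM in OVA Isotype lungs and 167 ± 14.6 CPM in Saline Isotype lungs, a log2 fold change of 0.52 ± 0.22 that missed the threshold (edgeR adjusted p = 0.0691) although the groups did not overlap. Hyou1 passed the threshold in 6 of the 25 alternative settings, with an edgeR adjusted p of 0.00464 when only the 10 libraries compared were fitted. With the Rn45s share as a covariate, Sdf2l1 had a log2 fold change of 0.98 ± 0.29 (edgeR adjusted p = 0.0643), Hspa5 0.49 ± 0.22 (edgeR adjusted p = 0.176) and Creld2 0.059 ± 0.38 (edgeR adjusted p = 0.937).

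The lectin chaperones calreticulin and calnexin, which bind glycosylated chains, were not called. Calr had a log2 fold change of 0.26 ± 0.13 (edgeR adjusted p = 0.14) and Canx -0.036 ± 0.14 (edgeR adjusted p = 0.86) in OVA Isotype against Saline Isotype lungs, with 95% intervals of -0.025 to 0.54 and -0.33 to 0.26. Of the 5 protein disulphide isomerases, 2 were higher. Pdia4 had 230.1, 182, 352, 422 and 148 CPM in OVA aIL4Ra lungs and 243, 342, 235, 269 and 216 CPM in OVA Isotype lungs. For Pdia4, Saline Isotype lungs had 136, 144, 108, 109 and 139 CPM. All 10 ovalbumin lungs exceeded all saline lungs, OVA aIL4Ra replicate 5 by the narrowest gap, and the log2 fold change of OVA Isotype over Saline Isotype was 1.04 ± 0.24 (edgeR adjusted p = 0.00366). Pdia6 had 249.6, 213, 307, 265 and 195 CPM in OVA aIL4Ra lungs and 235, 272, 218, 279 and 171 CPM in OVA Isotype lungs. For Pdia6, Saline Isotype lungs had 187, 199, 164, 142 and 183 CPM. Pdia6 overlapped between the OVA Isotype and Saline Isotype groups, since OVA Isotype replicate 5 lay below 3 of the 5 saline lungs, and its log2 fold change was 0.42 ± 0.15 (edgeR adjusted p = 0.0392). That call was lost on leaving out any 1 library other than OVA aIL4Ra replicates 3 and 5 and OVA Isotype replicate 5. The remaining 3 were not called: Pdia3, which works with the lectin chaperones, had a log2 fold change of 0.24 ± 0.18, Pdia5 0.098 ± 0.13, and P4hb, the founding member of the family, 0.051 ± 0.12.

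The thiol oxidases hand oxidising power to the disulphide isomerases, and their 2 genes had different values. Ero1lb had 69.0, 40.7, 109, 99.3 and 50.3 CPM in OVA aIL4Ra lungs and 91.3, 121, 51.0, 67.8 and 63.5 CPM in OVA Isotype lungs. For Ero1lb, Saline Isotype lungs had 37.0, 31.5, 30.3, 34.4 and 33.4 CPM. Every ovalbumin lung lay above every saline lung for Ero1lb, which is known for its part in secretory cells such as those of the pancreas, and its log2 fold change in OVA Isotype against Saline Isotype lungs was 1.24 ± 0.26 (edgeR adjusted p = 0.00211). Ero1l, its broadly expressed relative, averaged 59.0 ± 13.8 CPM in OVA Isotype lungs and 61.7 ± 9.39 CPM in Saline Isotype lungs, with a log2 fold change of -0.065 ± 0.18 (edgeR adjusted p = 0.803). The difference between the 2 genes was not tested.

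The J-domain co-chaperones stimulate the ATPase of BiP, and 1 of 4 was called. Dnajb11 had 99.2, 80.5, 142, 128 and 78.1 CPM in OVA aIL4Ra lungs and 97.0, 123, 90.0, 98.5 and 86.0 CPM in OVA Isotype lungs. For Dnajb11, Saline Isotype lungs had 68.5, 71.0, 70.4, 65.4 and 77.2 CPM. The OVA Isotype and Saline Isotype groups did not overlap for Dnajb11, which binds unfolded chains and passes them to BiP, and OVA aIL4Ra replicates 3 and 4 were the highest of all 15 lungs. Its log2 fold change was 0.49 ± 0.16 (edgeR adjusted p = 0.0235), a call lost without OVA Isotype replicate 1 or 2 or without Saline Isotype replicate 2. Dnajb9, which is known to repress IRE1, had a log2 fold change of 0.071 ± 0.24, Dnajc3, a chaperone partner also known for inhibiting eIF2 alpha kinases, 0.17 ± 0.093, and Dnajc10, a disulphide reductase, -0.065 ± 0.13; none of these 3 passed the test.

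Of the 9 genes of ER-associated degradation, 3 were higher in OVA Isotype than in Saline Isotype lungs. Derl3, a derlin of the channel through which failed chains leave the ER, had the largest change of the 9. Derl3 had 13.5, 2.68, 28.7, 44.7 and 3.52 CPM in OVA aIL4Ra lungs and 13.6, 28.8, 10.3, 8.95 and 12.2 CPM in OVA Isotype lungs. For Derl3, Saline Isotype lungs had 2.07, 1.28, 2.22, 1.96 and 1.95 CPM. All 10 ovalbumin lungs lay above all 5 saline lungs, but OVA aIL4Ra replicates 2 and 5 stood close to the saline level, and OVA aIL4Ra replicates 3 and 4 and OVA Isotype replicate 2 stood far above the rest. Derl3 averaged 18.6 ± 17.9 CPM in OVA aIL4Ra lungs, 14.8 ± 8.03 CPM in OVA Isotype lungs and 1.90 ± 0.362 CPM in Saline Isotype lungs (SD, n = 5 each), and within the OVA aIL4Ra group the highest lung was 16.6 times the lowest. The log2 fold change of OVA Isotype over Saline Isotype was 2.96 ± 0.64 (edgeR adjusted p = 0.00251), and 0.74 ± 0.54 (edgeR adjusted p = 0.409) with the Rn45s share as a covariate.

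Edem1 binds mannose-trimmed glycoproteins and hands them to degradation. Edem1 had 309, 168, 492, 378 and 183 CPM in OVA aIL4Ra lungs and 289, 383, 193, 240.4 and 219 CPM in OVA Isotype lungs. For Edem1, Saline Isotype lungs had 125, 101, 96.5, 106 and 116 CPM. Here too no ovalbumin lung reached down to the saline lungs, and the log2 fold change of OVA Isotype over Saline Isotype was 1.28 ± 0.26 (edgeR adjusted p = 0.00175). Syvn1 is the ubiquitin ligase of the pathway. Syvn1 had 77.0, 52.2, 116, 153 and 50.1 CPM in OVA aIL4Ra lungs and 95.9, 148, 70.5, 68.0 and 81.2 CPM in OVA Isotype lungs. For Syvn1, Saline Isotype lungs had 50.0, 43.0, 53.6, 51.4 and 47.2 CPM. OVA aIL4Ra replicates 2 and 5 lay among the saline lungs, whereas the 5 OVA Isotype lungs lay above them, with a log2 fold change of 0.92 ± 0.28 (edgeR adjusted p = 0.0192) that was no longer called without OVA Isotype replicate 2 or Saline Isotype replicate 2.

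The other 6 degradation genes were not called in OVA Isotype against Saline Isotype lungs. Edem2 had a log2 fold change of 0.42 ± 0.23 (edgeR adjusted p = 0.151) and Edem3 0.14 ± 0.12, both relatives of Edem1. Sel1l, the partner that holds Syvn1 in its complex, had 0.19 ± 0.15. Herpud1, which organises the complex and is a well-known target of the unfolded protein response, had -0.023 ± 0.16, with a 95% interval of -0.36 to 0.31. The derlins Derl1 and Derl2 had -0.047 ± 0.15 and 0.095 ± 0.13, beside the larger change of their relative Derl3.

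Among the 4 stress sensors, 2 were higher and the sensor of goblet and gut epithelium, Ern2, stood apart from the other 3. Ern2 had 11.6, 1.24, 11.5, 6.05 and 1.65 CPM in OVA aIL4Ra lungs and 7.65, 6.28, 19.7, 11.2 and 5.53 CPM in OVA Isotype lungs. For Ern2, Saline Isotype lungs had 0.113, 0.387, 0.101, 0 and 0 CPM. Saline Isotype lungs held 3, 10, 2, 0 and 0 counts, so their level is poorly known, and all 10 ovalbumin lungs lay above them. Ern2 averaged 6.42 ± 5.07 CPM in OVA aIL4Ra lungs, 10.1 ± 5.81 CPM in OVA Isotype lungs and 0.120 ± 0.159 CPM in Saline Isotype lungs (SD, n = 5 each), with a log2 fold change of 6.14 ± 0.82 in OVA Isotype against Saline Isotype lungs (edgeR adjusted p = 9.46e-05). With the Rn45s share as a covariate the value was 5.10 ± 0.99 (edgeR adjusted p = 0.0104). Ern2 was the only 1 of the 19 called genes that kept its call in all 25 alternative settings. Hspa5, Hsp90b1, Sdf2l1, Manf, Creld2, Pdia4, Ero1lb, Derl3 and Edem1 each kept the call in 24 of the 25 and lost it only with that covariate. Eif2ak3 is the gene of PERK. Eif2ak3 had 60.3, 57.9, 70.9, 79.8 and 57.2 CPM in OVA aIL4Ra lungs and 63.7, 88.7, 61.4, 61.5 and 80.0 CPM in OVA Isotype lungs. For Eif2ak3, Saline Isotype lungs had 53.5, 53.2, 54.7, 51.5 and 61.8 CPM. OVA Isotype replicates 2 and 5 were the 2 highest of the 15 lungs, the other 3 lungs of that group lay close to the highest saline lung, and the log2 fold change was 0.37 ± 0.13 (edgeR adjusted p = 0.0323). That call was lost without OVA aIL4Ra replicate 1 or 2, OVA Isotype replicate 1, 2 or 5, or any saline replicate other than replicate 5.

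Ern1, the gene of the broadly expressed IRE1, averaged 61.2 ± 12.5 CPM in OVA Isotype lungs and 51.9 ± 4.34 CPM in Saline Isotype lungs (SD, n = 5 each), with a log2 fold change of 0.24 ± 0.15 (edgeR adjusted p = 0.218). Atf6 had 117 ± 6.44 CPM in OVA Isotype lungs and 133 ± 15.1 CPM in Saline Isotype lungs, with a log2 fold change of -0.18 ± 0.10 (edgeR adjusted p = 0.168). Counts per gene do not tell the spliced from the unspliced form of Xbp1 or the cut from the whole ATF6 protein, so the activity of the sensors was not measured.

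Of the 4 transcription factors and targets of the response, only Xbp1 was called. Xbp1 had 227, 212, 342, 404 and 174 CPM in OVA aIL4Ra lungs and 229, 266, 211, 221 and 208 CPM in OVA Isotype lungs. For Xbp1, Saline Isotype lungs had 163, 163, 156, 154 and 167 CPM. All ovalbumin lungs exceeded all saline lungs, and OVA aIL4Ra replicates 3 and 4 exceeded every OVA Isotype lung. Xbp1, which is required for the secretory build-up of plasma cells, averaged 272 ± 96.8 CPM in OVA aIL4Ra lungs, 227 ± 23.5 CPM in OVA Isotype lungs and 161 ± 5.37 CPM in Saline Isotype lungs (SD, n = 5 each). The log2 fold change was 0.50 ± 0.18 for OVA Isotype against Saline Isotype (edgeR adjusted p = 0.0429), a call lost on leaving out any 1 library other than OVA aIL4Ra replicates 3, 4 and 5, and 0.76 ± 0.18 for OVA aIL4Ra against Saline Isotype (edgeR adjusted p = 0.00773).

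Ddit3 encodes CHOP, a factor associated with cell death under prolonged ER stress. Ddit3 had 7.51, 8.60, 7.65, 12.9 and 9.88 CPM in OVA aIL4Ra lungs and 7.57, 7.02, 8.98, 6.29 and 11.3 CPM in OVA Isotype lungs. For Ddit3, Saline Isotype lungs had 10.3, 10.3, 14.3, 11.1 and 9.52 CPM. The groups overlapped, since OVA aIL4Ra replicates 4 and 5 and OVA Isotype replicate 5 lay within the saline range, and the log2 fold change of -0.44 ± 0.19 for OVA Isotype against Saline Isotype missed the threshold (edgeR adjusted p = 0.0854). It was called lower without OVA Isotype replicate 5 (log2 -0.57, edgeR adjusted p = 0.03) and without OVA aIL4Ra replicate 4 (log2 -0.48, edgeR adjusted p = 0.038). Atf4, the factor whose translation PERK favours, had a log2 fold change of 0.34 ± 0.14 (edgeR adjusted p = 0.0705), and Trib3, a target and inhibitor of that branch, -0.34 ± 0.20 (edgeR adjusted p = 0.189). Atf4 passed the threshold without OVA Isotype replicate 4 (edgeR adjusted p = 0.0496).

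**Figure D2:**
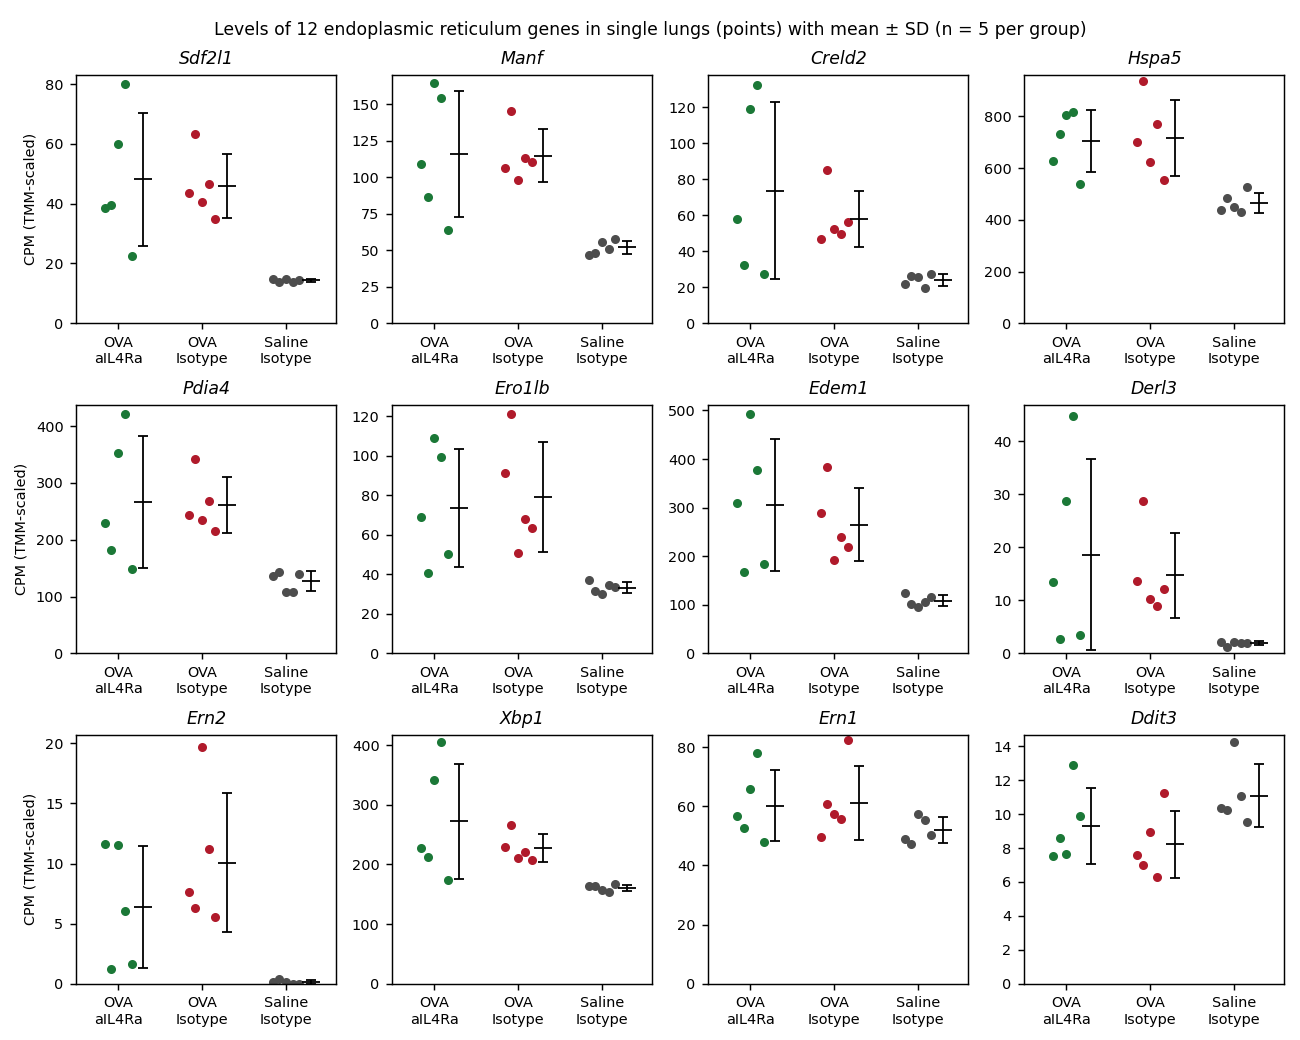
Levels (y axis, CPM on TMM-scaled totals, from 0) of 12 of the genes in single lungs (points) of the 3 groups, with mean and SD beside them (n = 5 per group). Saline Isotype lungs lie close together and below the ovalbumin groups for Sdf2l1, Manf, Pdia4, Ero1lb, Edem1, Derl3 and Xbp1, whereas the groups overlap for Ern1 and Ddit3.

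The CREB3-like factors are held in the ER membrane and released by cleavage. Creb3l4 had 6.94, 1.72, 5.32, 3.03 and 2.27 CPM in OVA aIL4Ra lungs and 3.18, 2.31, 8.91, 4.44 and 2.46 CPM in OVA Isotype lungs. For Creb3l4, Saline Isotype lungs had 1.13, 2.36, 1.16, 2.18 and 1.53 CPM. OVA Isotype replicate 3 and OVA aIL4Ra replicates 1 and 3 had the 3 highest levels, and the groups overlapped, with a log2 fold change of 1.36 ± 0.44 in OVA Isotype against Saline Isotype lungs (edgeR adjusted p = 0.0231). The call was lost without OVA Isotype replicate 3 or without Saline Isotype replicate 1, 3 or 5. Creb3l1, which is known for its part in the maturation of goblet cells in the mouse large intestine, was not called. Creb3l1 had 39.6, 23.9, 41.5, 28.3 and 19.6 CPM in OVA aIL4Ra lungs and 22.0, 25.0, 57.8, 40.7 and 23.4 CPM in OVA Isotype lungs. For Creb3l1, Saline Isotype lungs had 29.6, 29.9, 22.9, 24.8 and 29.2 CPM. OVA Isotype replicate 3 was the highest, as it was for Creb3l4 and Ern2, while OVA Isotype replicates 1, 2 and 5 lay within or below the saline range, and the log2 fold change was 0.31 ± 0.26 (edgeR adjusted p = 0.371, 95% interval -0.25 to 0.87). Creb3l2 had a log2 fold change of -0.22 ± 0.13 (edgeR adjusted p = 0.178) and was called lower on leaving out OVA Isotype replicate 3 (log2 -0.34, edgeR adjusted p = 0.0419).

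Proteins enter the ER through the translocon, lose their signal peptide there, and are fetched back from the Golgi by retrieval receptors; 3 of the 8 genes with these tasks were higher, all by small amounts. Sec61b had 46.3, 49.9, 58.1, 54.7 and 37.8 CPM in OVA aIL4Ra lungs and 42.4, 61.1, 42.9, 51.4 and 29.0 CPM in OVA Isotype lungs. For Sec61b, Saline Isotype lungs had 23.4, 31.0, 38.7, 35.0 and 31.6 CPM. Sec61b, a subunit of the translocon, overlapped between groups through OVA Isotype replicate 5, and its log2 fold change was 0.51 ± 0.18 (edgeR adjusted p = 0.0383). Ssr3 had 387, 280.0, 425, 209 and 321 CPM in OVA aIL4Ra lungs and 378, 312, 266, 420.3 and 289.5 CPM in OVA Isotype lungs. For Ssr3, Saline Isotype lungs had 260.5, 270.0, 176, 215 and 258 CPM. Ssr3, a subunit of the translocon-associated complex, overlapped as well, since OVA Isotype replicate 3 lay below Saline Isotype replicate 2, and its log2 fold change was 0.50 ± 0.19 (edgeR adjusted p = 0.0485). Spcs2 had 98.4, 90.1, 131, 93.8 and 86.7 CPM in OVA aIL4Ra lungs and 109, 129, 89.8, 109 and 86.6 CPM in OVA Isotype lungs. For Spcs2, Saline Isotype lungs had 78.8, 80.3, 67.5, 70.1 and 86.8 CPM. For Spcs2, a subunit of signal peptidase, OVA Isotype replicates 3 and 5 lay close to the highest saline lungs, and the log2 fold change was 0.45 ± 0.14 (edgeR adjusted p = 0.0174).

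The calls of these 3 genes were sensitive to single libraries. That of Spcs2 was lost without OVA Isotype replicate 1 or 2, that of Sec61b without any 1 library other than OVA aIL4Ra replicates 3 and 5, OVA Isotype replicate 5 and Saline Isotype replicates 3 and 4, and that of Ssr3 without any 1 other than OVA aIL4Ra replicates 3 and 4 and OVA Isotype replicate 3. The pore subunit Sec61a1 had a log2 fold change of 0.19 ± 0.13, Ssr1 0.11 ± 0.14, Spcs1 -0.22 ± 0.23, and the retrieval receptors Kdelr2 -0.1 ± 0.12 and Kdelr3 0.34 ± 0.19; none of these 5 was called. Kdelr3 passed the threshold without OVA Isotype replicate 5 (log2 0.48, edgeR adjusted p = 0.0319).

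Beyond single genes, 15 of the 47 had every OVA Isotype lung above every Saline Isotype lung and 0 the reverse, where 26.6% of all genes tested lay apart, 12.1% in the higher and 14.5% in the lower direction. The number of genes called rested in part on single libraries. It was 11 without OVA Isotype replicate 2, 12 without OVA Isotype replicate 1 and 12 without Saline Isotype replicate 2. Calls over all genes fell in the same fits as well, to 4838 of 16022, 4925 of 16019 and 5229 of 16024 tested, from 5899 of 15905.

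Under the antibody, the 47 genes were not distinguished from those of the OVA Isotype lungs. Log2 fold changes of OVA aIL4Ra over OVA Isotype ran from -0.66 for Ern2 to 0.34, with a median of 0.04 beside -0.0021 over all genes, and every adjusted p was 1. For 0 of the 47 did the OVA aIL4Ra lungs lie apart from the OVA Isotype lungs, where 1.17% of all genes did, 0.509% higher and 0.66% lower. Ern2 averaged 6.42 ± 5.07 CPM in OVA aIL4Ra lungs and 10.1 ± 5.81 CPM in OVA Isotype lungs (SD, n = 5 each), a log2 fold change of -0.66 ± 0.59 with a 95% interval of -1.91 to 0.58. Other intervals were narrower: Hspa5 had -0.026 ± 0.15 with an interval of -0.35 to 0.30, Sdf2l1 0.068 ± 0.25 with -0.46 to 0.60, and Xbp1 0.26 ± 0.18 with -0.13 to 0.65. Derl3 had 0.33 ± 0.58 with -0.89 to 1.56, so a 2-fold rise lies inside its interval. A p over the threshold does not show that levels were alike.

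Genes outside the 47 did differ between these groups. Arg1, the arginase gene of alternatively activated macrophages and a known target of interleukin-4 receptor signalling, fell to 7.61 ± 4.41 CPM in OVA aIL4Ra lungs, against 152 ± 59.6 CPM in OVA Isotype lungs (log2 -4.32 ± 0.38, edgeR adjusted p = 6.78e-05). Ccl24, an eosinophil-attracting chemokine of the same cells, fell to 1.26 ± 0.845 CPM in OVA aIL4Ra lungs, against 19.8 ± 6.91 CPM in OVA Isotype lungs (log2 -3.95 ± 0.43, edgeR adjusted p = 0.000448). Of the 154 tested genes of 6 further ER and stress lists, 1 was called between these groups (0.649%, beside 0.302% of all genes). Slc7a11 had 16.6, 12.5, 19.0, 11.4 and 14.1 CPM in OVA aIL4Ra lungs and 28.3, 46.9, 23.0, 51.5 and 35.8 CPM in OVA Isotype lungs. For Slc7a11, Saline Isotype lungs had 7.60, 7.59, 6.86, 8.76 and 8.18 CPM. Slc7a11, the cystine transporter and a target of ATF4, did not overlap between any 2 groups, and it was lower under the antibody (log2 -1.34 ± 0.20, edgeR adjusted p = 0.00479).

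The OVA aIL4Ra lungs were set against saline lungs as well. The 18 genes that were higher shared 16 with the 19 of OVA Isotype against Saline Isotype, 88.9% of the 18 and 84.2% of the 19. Both comparisons use the same saline lungs. The shared part of the calls over all genes was not computed, so whether the overlap is particular to these genes is not known. Hyou1 and Edem2 were called in this comparison and not in that of OVA Isotype lungs, with log2 fold changes of 0.70 ± 0.22 (edgeR adjusted p = 0.0263) and 0.77 ± 0.23 (edgeR adjusted p = 0.0211), while Creb3l4, Eif2ak3 and Ssr3 were called there and not here. The calls of Hyou1 and Edem2 were lost without OVA aIL4Ra replicate 3 or 4, with log2 fold changes of 0.20 and 0.27 without both, and that of Hyou1 also without Saline Isotype replicate 1 or 4. With only the 10 libraries compared, both were called in OVA Isotype against Saline Isotype lungs as well. Creb3l4 passed the threshold in OVA aIL4Ra against Saline Isotype lungs in 7 of the 25 alternative settings and Ssr3 in 1. None of these 5 differed between the ovalbumin groups by the test of that difference. The largest values were those of Ern2 (log2 5.48 ± 0.82, edgeR adjusted p = 0.000354), Derl3 (log2 3.29 ± 0.65, edgeR adjusted p = 0.00238) and Sdf2l1 (log2 1.74 ± 0.26, edgeR adjusted p = 0.000344). All 6 chaperones were among the 18, and 12 of the 47 genes had no overlap between OVA aIL4Ra and Saline Isotype lungs, all of them higher, where 19.8% of all genes lay apart, 9.54% in that direction and 10.3% in the other.

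The 5 OVA aIL4Ra lungs differed widely from each other. Replicate 3 was the highest of the 5 for 18 of the 47 genes and replicate 4 for another 18, and these were the 2 highest of the 5 for 25 genes. The same counts were not made over all genes, so whether this ranking is particular to the 47 is not known. A setting without both replicates 3 and 4 was chosen after their levels were seen. In it, 6 of the 47 genes were called higher in OVA aIL4Ra against Saline Isotype lungs. Calls over all genes fell as well, to 2081 of 16139 tested (1163 higher and 918 lower), from 4236 of 15905. Sdf2l1 then had a log2 fold change of 1.198 (edgeR adjusted p = 0.00195), Edem1 0.99 (edgeR adjusted p = 0.0118), Derl3 1.74 (edgeR adjusted p = 0.0322) and Xbp1 0.33 (edgeR adjusted p = 0.065). In the same setting 0 of the 47 were called between OVA aIL4Ra and OVA Isotype lungs, where 62 of all 16139 genes were. Derl3 was at -1.17 (edgeR adjusted p = 0.483) and Sdf2l1 at -0.43 (edgeR adjusted p = 0.532).

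**Figure D3:**
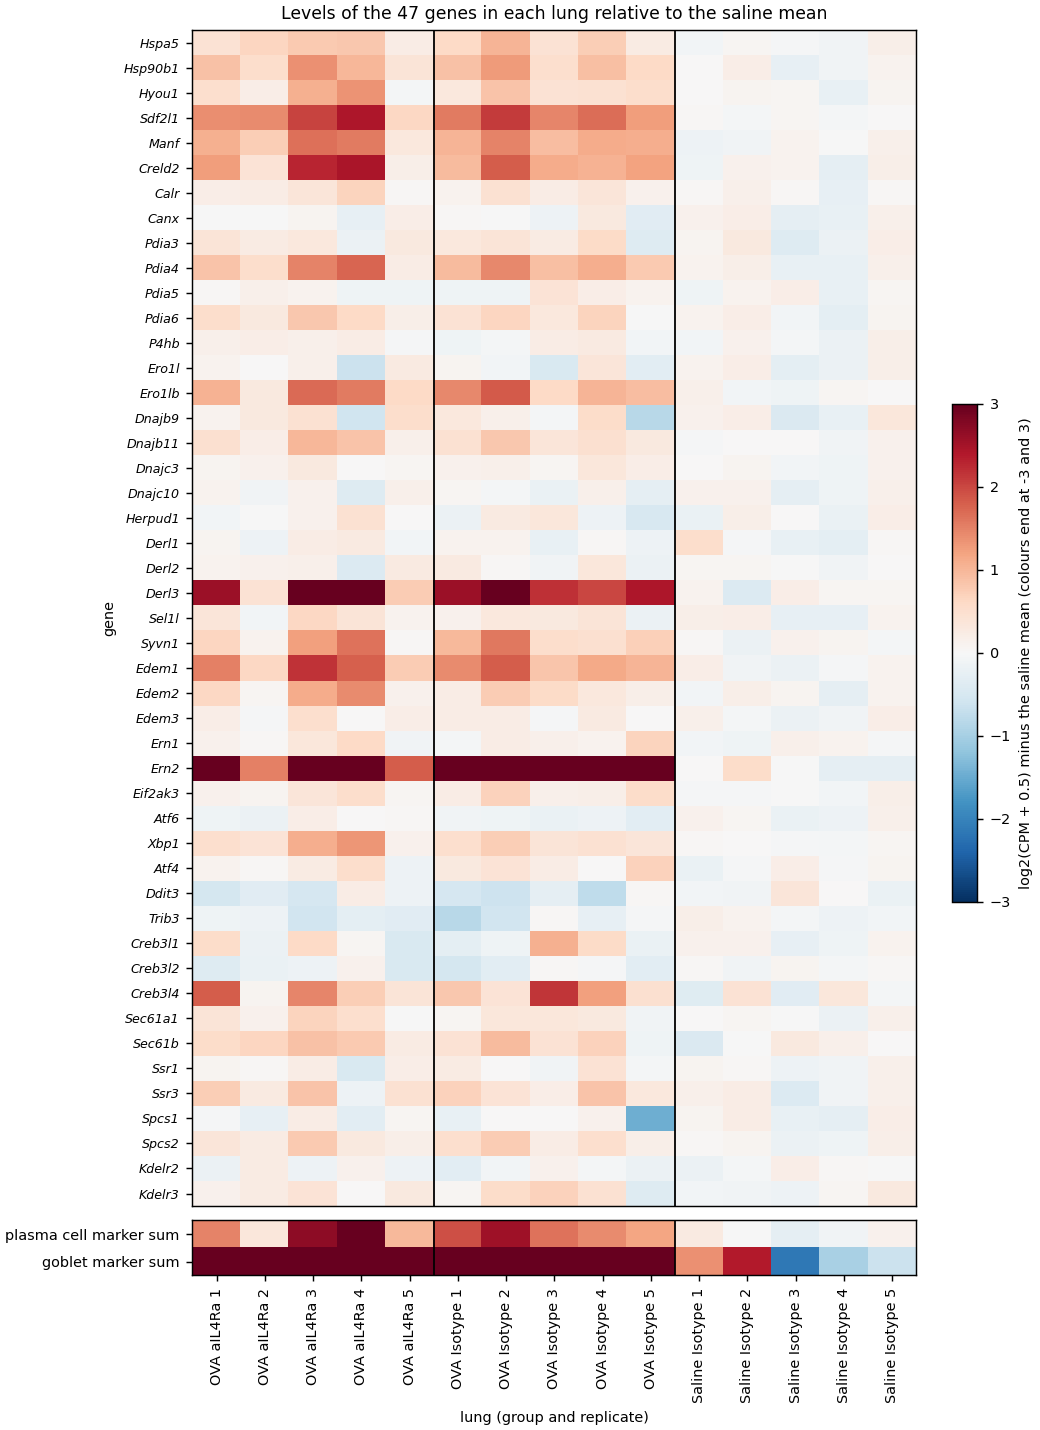
Level of each of the 47 genes (rows) in each of the 15 lungs (columns) as log2(CPM + 0.5) minus the mean of the saline lungs, red for higher and blue for lower, with the summed plasma cell and goblet markers in the lowest rows. Red rows for Sdf2l1, Manf, Creld2, Pdia4, Ero1lb, Derl3, Syvn1, Edem1 and Xbp1 are darkest in OVA aIL4Ra replicates 3 and 4 and in OVA Isotype replicate 2.

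The same lungs were high in plasma cell markers. The summed level of 9 plasma cell markers was 1038, 473, 2391, 3739 and 732 CPM in OVA aIL4Ra lungs, 1415, 2182, 1151, 991 and 851 CPM in OVA Isotype lungs and 309 to 449 CPM in Saline Isotype lungs. OVA aIL4Ra replicates 4 and 3 and OVA Isotype replicate 2 had the 3 highest sums of the 10 ovalbumin lungs. Igj, the joining chain of secreted antibody, and Mzb1, a chaperone partner of antibody assembly, had the largest changes of the 9 in OVA Isotype against Saline Isotype lungs (log2 3.95 ± 0.83 and 3.73 ± 0.61, edgeR adjusted p = 0.00212 and 0.000405). Among these 10 lungs, 17 of the 47 genes (36.2%) had the same 3 lungs on top, beside 516 of all 15905 genes tested (3.24%) and 4 of the 9 plasma cell markers themselves. Sdc1, the marker of the 9 that was lower, averaged 116 ± 21.6 CPM in OVA Isotype lungs and 185 ± 34.6 CPM in Saline Isotype lungs (log2 -0.68 ± 0.15, edgeR adjusted p = 0.00317). The 17 were Hspa5, Hsp90b1, Hyou1, Sdf2l1, Manf, Creld2, Calr, Pdia4, Ero1lb, Dnajb11, Derl1, Derl3, Syvn1, Edem1, Edem2, Xbp1 and Sec61b. The same 3 lungs also had the 3 lowest sums of the 10 for alveolar type 1 markers (982 to 1244 CPM, the next 1374). They had the 3 lowest for endothelial markers too (1454 to 1544 CPM, the next 1821). These descriptions were chosen after the levels were seen and carry no test.

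Goblet cell markers were ordered otherwise. Their sum over 12 genes was 14309, 1381, 12957, 4335 and 1626 CPM in OVA aIL4Ra lungs, 8050, 5519, 22853, 12270 and 3538 CPM in OVA Isotype lungs and 14.5 to 346 CPM in Saline Isotype lungs, where Retnlb was at 0 in all 5. Clca3, the goblet marker with the largest change, averaged 3418 ± 3149 CPM in OVA aIL4Ra lungs, 5814 ± 4316 CPM in OVA Isotype lungs and 0.814 ± 1.34 CPM in Saline Isotype lungs (SD, n = 5 each). OVA Isotype replicate 3 and OVA aIL4Ra replicates 1 and 3 had the 3 highest sums, and the same 3 lungs were on top for Ern2 and Creb3l4 among the 47 genes (4.26%, beside 2.82% of all genes) and for 5 of the 12 goblet markers. The share of the 47 was near that of all genes, so this match does not set them apart. OVA aIL4Ra replicates 2 and 5, lowest in both marker sums among the ovalbumin lungs, were also the lowest of the 10 for Ern2 and Derl3. Whether more goblet and plasma cells account for the levels of Ern2, Derl3 and the chaperones was not tested.

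**Figure D4:**
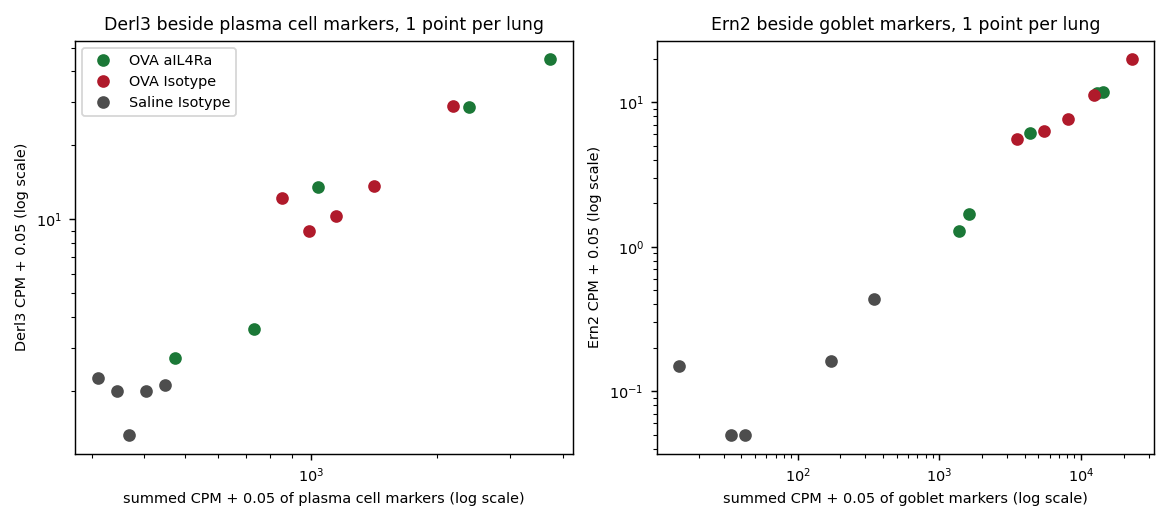
Derl3 against the summed plasma cell markers (left) and Ern2 against the summed goblet markers (right), 1 point per lung, all axes in CPM + 0.05 on a log scale, coloured by group. OVA aIL4Ra replicates 3 and 4 and OVA Isotype replicate 2 form the upper right of the left panel, and OVA Isotype replicate 3 the upper right end of the right panel.

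Of 159 further genes of the pathway, in 6 lists, 158 were in the table and 154 were tested. In OVA Isotype against Saline Isotype lungs, 30 were higher and 18 lower, so 31.2% were called. Over all genes tested 37.1% were called, 19.3% higher and 17.8% lower. The median log2 fold change of the 154 was 0.0093, beside 0.022 over all genes. Among other foldases, 4 were higher and 3 lower of 30, with Fkbp11, a prolyl isomerase of secretory tissues (log2 1.14), the sulfhydryl oxidase Qsox1 (1.09) and Erp29 (0.82) among the higher and Fkbp9 (-0.76), Mesdc2 (-0.42) and Sumf1 (-0.39) the 3 lower ones. For N-glycosylation, 4 were higher and 0 lower of 25, led by the mannosidase Man1a (1.13), Gmppb (0.72) and the oligosaccharyltransferase subunit Ostc (0.53). For translocation and signal peptide removal, 6 were higher and 2 lower of 20: the signal peptidase subunits Sec11c (1.24) and Spcs3 (1.01) and the signal recognition particle gene Srp9 (0.84) had the largest rises, and Sec62 (-0.51) and Srp68 (-0.36) were lower. In the list of other degradation genes, 3 were higher (Ube2j2 0.77, Ube2j1 0.51, Ngly1 0.36) and 3 lower of 21, with Herpud2 (-0.52) and Ubxn6 (-0.41) among the lower ones.

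The targets of PERK and ATF4 split in both directions, with 10 higher and 7 lower of 30. Slc7a11 (log2 2.25), the folate enzyme Mthfd2 (1.69) and the amino acid transporter Slc7a5 (1.63) had the largest rises, while Vldlr (-1.22), the translation repressor Eif4ebp1 (-0.96) and the transcription factor Atf5 (-0.86) had the largest falls. Among other sensors and regulators, 3 were higher and 3 lower of 28. Bhlha15 had 15.2, 7.98, 34.6, 36.0 and 5.39 CPM in OVA aIL4Ra lungs and 15.8, 22.2, 14.9, 11.8 and 15.3 CPM in OVA Isotype lungs. For Bhlha15, Saline Isotype lungs had 3.31, 4.11, 4.24, 3.54 and 3.17 CPM. Bhlha15, a transcription factor of secretory cells that acts with XBP1, was higher in every OVA Isotype lung than in any saline lung (log2 2.12 ± 0.43, edgeR adjusted p = 0.00157), and OVA aIL4Ra replicates 3 and 4 and OVA Isotype replicate 2 again had the 3 highest levels. Crebzf (0.52) and Traf2 (0.47) were higher as well, and Tmbim6 (-0.61), Creb3 (-0.37) and the protease gene Mbtps1 (-0.32) were lower. In OVA aIL4Ra against Saline Isotype lungs, 27 of the 154 were higher and 11 lower (24.7% called). Over all genes 26.6% were called there, 13.9% higher and 12.7% lower.

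Marker lists gave the wider setting in OVA Isotype against Saline Isotype lungs. B cell (8 of 8), dividing cell (8 of 8) and alternatively activated macrophage markers (10 of 10) were higher, with summed levels of 339 to 1672, 443 to 1137 and 8768 to 15881 CPM in OVA Isotype lungs and 139 to 264, 78.3 to 139 and 243 to 293 CPM in Saline Isotype lungs. Lower were 7 of 8 club cell, 6 of 7 alveolar type 1 and 5 of 8 alveolar type 2 markers, with sums of 4141 to 11991, 982 to 2268 and 6533 to 14059 CPM in OVA Isotype lungs and 13243 to 31146, 3378 to 4581 and 13780.0 to 19525 CPM in Saline Isotype lungs; 1 further alveolar type 2 marker was higher. Of 8 ciliated cell markers 1 was lower, and of 8 fibroblast markers 3 were higher and 2 lower. The sums of ciliated cell, fibroblast and endothelial markers were 446 to 928, 3220.2 to 5357 and 1457 to 3069 CPM in OVA Isotype lungs and 416 to 997, 2444 to 4031 and 4227 to 5721 CPM in Saline Isotype lungs. In OVA aIL4Ra against OVA Isotype lungs, 3 of 10 alternatively activated macrophage markers were lower and 0 of the other lists were called.

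The share of counts on Rn45s was set beside the genes because it differed between groups, at 7.34% ± 4.69 in OVA aIL4Ra lungs, 7.14% ± 3.36 in OVA Isotype lungs and 1.75% ± 0.68 in Saline Isotype lungs (SD, n = 5 each). With the log2 of the share as a covariate, 18 of the 19 genes called in OVA Isotype against Saline Isotype lungs had a smaller log2 fold change. The other 1 had a larger value. The median over the 47 was 0.12 with the covariate and 0.31 without it, and for OVA aIL4Ra against Saline Isotype lungs 0.20 with it and 0.25 without it. Ern2 remained at 5.10 ± 0.99 in OVA Isotype against Saline Isotype lungs, while Edem1 had 0.53 ± 0.28 (edgeR adjusted p = 0.253) and Xbp1 -0.00373 ± 0.21 (edgeR adjusted p = 0.994). Every ovalbumin lung except OVA aIL4Ra replicate 5 had a larger share than every saline lung, so the share and the treatment are partly confounded.

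**Figure D5:**
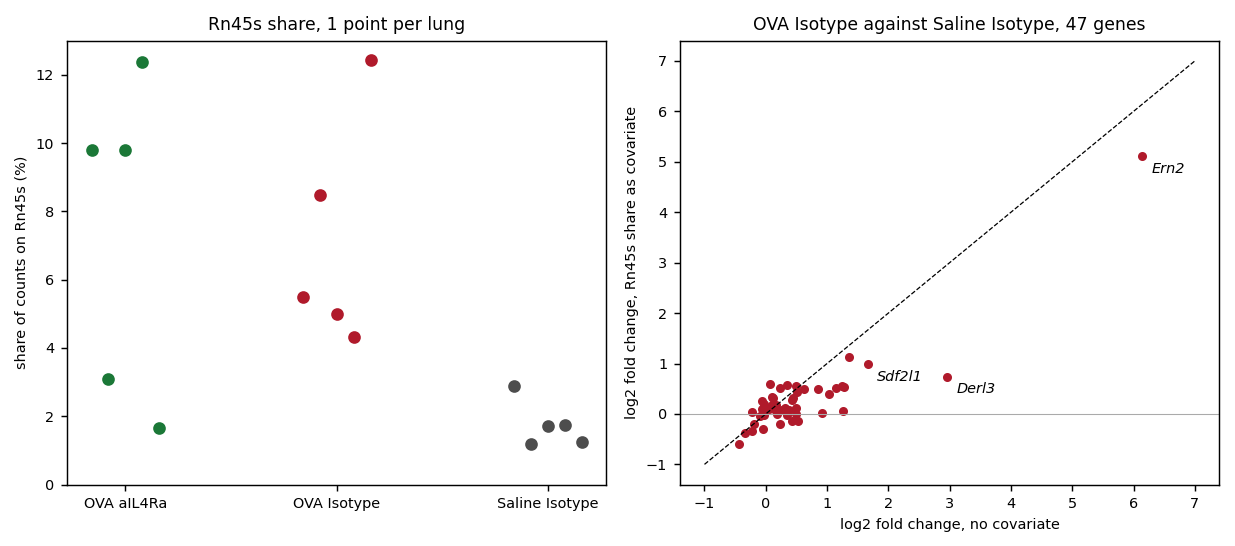
Left, share of counts on Rn45s (y axis, percent) in each lung by group. Right, log2 fold change of the 47 genes in OVA Isotype against Saline Isotype lungs. Values on the y axis had the log2 of the share as a covariate, those on the x axis had none, and the dashed line marks equal values. Saline Isotype lungs lie between 1.19% and 2.88%, and Ern2, Sdf2l1 and Derl3 fall below the line.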

How the data were processed

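The authors deposited RSEM expected counts per gene for 15 lung libraries; per the submitters' processing notes, reads were processed with RSEM 1.2.15 and Bowtie2 2.1.0. Those notes name build hg38, a human build, although the symbols are those of mouse genes; annotation and counting strand were not given in the sources used here. Both ribosomal RNA depletion and oligo-dT purification are named, with strand-specific libraries, per the labels' protocols.

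Expected counts were rounded to whole numbers and tested in edgeR 4.0.16 (R 4.3.3): filterByExpr kept 15905 of 24054 genes, TMM scaled the libraries, and 1 quasi-likelihood fit over all 15 libraries gave 2-sided tests, Benjamini-Hochberg adjusted over all genes tested and called at 0.05. The method was tested on simulated data. CPM use TMM-scaled totals; SE and 95% intervals are those of the log2 fold change. On unscaled library totals, a level of 3 counts is at most 0.299 CPM in any library. Saline lungs held 0 to 10 counts of Ern2, so low counts limit its level there. Intervals cover spread between lungs, not batches, which the labels do not give.

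The genes, lists and tests were chosen with earlier results of these data known. Levels in every lung are given for the up to 3 called genes with the largest change per role in OVA Isotype against Saline Isotype lungs and for Ern2, Creb3l1, Xbp1, Ddit3 and Hspa5; further pathway lists give up to 3 called genes per direction, of which 1 is not reported here; Adcy3 and Spats2l were named after their values were seen. Markers of 11 cell types were counted. Of the 47 genes, 45 were found in the annotation searched for overlaps. Exons of 12 overlap a gene on the opposite strand (called among them: Eif2ak3, Hsp90b1, Manf, Pdia6 and Syvn1), so their reads are uncertain. Exons of 3 (Hsp90b1, Manf and Pdia4, all called) overlap a gene on the same strand, so theirs are uncertain too. In every library, 40 of the 47 (17764 of 24054 genes in the table) had counts within 0.005 of a whole number. Same-numbered replicates of different groups did not deviate together (2 of 15 correlations over 0.1, -0.55 to 0.35), so replicates were not paired. Alternatives were other scalings (RLE, library totals, upper quartile), no filter, DESeq2 1.42.0, limma 3.58.1 voom and only the 10 libraries compared. Further ones were a replicate block, the Rn45s share as covariate (entered as its log2 wherever that covariate is named), and each library left out. Leaving out OVA aIL4Ra replicates 3 and 4 together was added after seeing the data.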

Additional observations from a re-analysis of the deposited data

Results flagged for a closer look

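In 7 of 141 gene and group combinations, 1 lung stood apart from the other 4 of its group by a gap test at the 95% level. Chance flags about 1 in 20 groups, so the number flagged was about what chance gives. In OVA aIL4Ra lungs, Pdia3 was at 354 CPM in replicate 4 (others 479 to 526) and Derl2 at 31.5 CPM in replicate 4 (others 45.9 to 50.9), while Spcs2 was at 131 CPM in replicate 3 (others 86.7 to 98.4). In OVA Isotype lungs, Creld2 was at 85.3 CPM in replicate 2 (others 47.1 to 56.1) and Derl3 at 28.8 CPM in replicate 2 (others 8.95 to 13.6). In Saline Isotype lungs, Hyou1 was at 142 CPM in replicate 4 (others 167 to 176) and Derl3 at 1.28 CPM in replicate 2 (others 1.95 to 2.22). OVA Isotype replicate 2 was also the lung of its group with the highest sum of plasma cell markers; the cause of these gaps was not tested.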

How the results depend on the processing

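For OVA Isotype against Saline Isotype, 19 of the 47 genes were called, 18 with RLE factors, 21 with library totals, upper quartile factors or only the 10 libraries compared, 15 with no filter, 19 with DESeq2 and 19 with limma voom. The count was 12 with a replicate block and 1 with the Rn45s share as covariate, and ran from 11 to 19 over the fits without 1 library. Over all genes, 5899 of 15905 were called (3070 higher, 2829 lower), 5953 of 20316 with no filter, 4625 with the block and 752 with the Rn45s share. The all-gene count was 5897 with RLE factors, 6519 with DESeq2 and 5976 with limma voom. It was 5984 of 15654 with only the 10 libraries compared. Library totals gave 5859 (3230 higher, 2629 lower) and upper quartile factors 5896 (3500 higher, 2396 lower), so there the calls over all genes shifted towards higher. For OVA aIL4Ra against OVA Isotype, 0 were called in every setting run. Over all genes, 48 were called as reported, 26 with the block and 128 with DESeq2. Without OVA aIL4Ra replicates 3 and 4, 8 of the 47 had an unadjusted p under 0.05 (9.29% of all genes did). For OVA aIL4Ra against Saline Isotype, 18 were called, 0 with the Rn45s share and 6 without OVA aIL4Ra replicates 3 and 4 together. The count was 13 with a replicate block and 12 to 21 without 1 library. Over all genes, 4236 of 15905 were called, 373 with the Rn45s share, 2081 of 16139 without replicates 3 and 4, and 2891 with the block. Of the further pathway genes, 48 were called in OVA Isotype against Saline Isotype, 3 with the Rn45s share and 36 with the block (37 to 54 without 1 library). In OVA aIL4Ra against OVA Isotype, 1 was called, 2 with DESeq2, 2 without OVA aIL4Ra replicates 3 and 4, 0 with the block (1 to 2 without 1 library). In OVA aIL4Ra against Saline Isotype, 38 were called, 1 with the Rn45s share, 17 without replicates 3 and 4, 25 with the block (20 to 43 without 1 library). With the Rn45s share, Xbp1 changed sign in OVA Isotype against Saline Isotype (-0.0037, edgeR adjusted p = 0.994), as did Syvn1 in OVA aIL4Ra against Saline Isotype (-0.037, edgeR adjusted p = 0.952); the cause was not tested. Besides those of Xbp1 and Syvn1 with a change of sign, over single genes and settings calls were lost 96 times and gained 15 times in OVA Isotype against Saline Isotype, and lost 68 and gained 16 times in OVA aIL4Ra against Saline Isotype. Replicate numbers share only a name, and the block is given for completeness. Low counts limit Ern2 in saline lungs.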
